A study of Mus musculus with 2 samples.

Results

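The nuclear receptor superfamily was examined in urogenital ridges of mouse embryos lacking the receptor for Müllerian inhibiting substance. The 46 genes considered are steroid, retinoid, thyroid hormone and orphan receptors that were listed by name, and they were followed through all probe sets that the platform annotation gives to each gene alone. Of the 46, 44 had at least 1 such probe set (115 probe sets), out of 18193 genes represented in this way on the array. Nr1h2 and Nr2e3 had none and were not analysed here.

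The tissue was E14.5 ridge, the embryonic strip in which the Müllerian and Wolffian ducts run through mesenchyme, with the gonads taken off. One pool of about 100 ridges was Misr2+/- and the other, also of about 100, was Misr2-/-, so every embryo in either pool carried the deletion on at least 1 chromosome. Misr2, listed as Amhr2 by the annotation, is the gene for that hormone's type II receptor, and the labels call the heterozygous ridges responsive to the hormone and the homozygous ones not. Genotype was scored with a YFP reporter on a mixed C57Bl/6 and 129SVEV background. Neither the embryos' sex nor the reporter's promoter is stated in the sources used here. With 1 array per genotype, every value below is a single measurement, no difference was tested, and words such as higher and lower describe these 2 pools only.

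Nuclear receptors are transcription factors, many of which switch on or off genes when a small fat-soluble ligand enters the cell. Most bind DNA as pairs at repeats of a short hexamer, and the retinoid X receptors serve as the common partner of the retinoic acid, thyroid hormone and vitamin D receptors and of several lipid sensors. In the developing reproductive tract, steroid receptors, retinoic acid receptors and the COUP transcription factors act in the mesenchyme as well as in the ducts.

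Signals are linear intensities as deposited, and the homozygous array was the brighter one, with a median of 139.4 against 116.5. Differences are therefore given on the log2 scale, homozygous minus heterozygous, relative to this shift of 0.26, and a signal counts as measured when it reaches the median of its array. Signals under that median were set to it before a difference was taken, so a difference with 1 pool under it is a lower bound on the size. Without the shift each difference would be higher by 0.26, and relative to the hybridisation control spikes lower by 0.40, so small values change sign with the scaling. The brightest probe set stands for a gene unless another is named. Between probe sets of 1 gene, log2 differences had an SD of 0.23 over 5264 genes, which serves as a yardstick for technical scatter and leaves out variation between pools. The targeted gene followed the labels. The 3 Amhr2 probe sets went from 1549.6, 1047.8 and 181 in the heterozygous pool to 10.2, 27.7 and 2.8 in the homozygous pool, all below the array median there.

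Of the 44 receptor genes with a probe set, 22 (50%) were measured, against 62.8% of all genes, and all 22 lay above the array median in both pools. Steroid receptors Esr1, Pgr and Nr3c1, the retinoid receptors Rarb, Rarg, Rxra and Rxrb, Thra, Vdr, Ppard, Esrra, Rora and Nr1d2 were among them. So were Nr2c1, Nr2c2, Nr2f1, Nr2f2, Nr2f6, Hnf4a, Nr4a1, Nr4a2 and Nr5a2. The other 22 were under the median of both arrays, their heterozygous signals spanning 3.9 to 111.4 and their homozygous signals 5.2 to 139.1, so that no difference is given for them. These were Esr2, Nr3c2, Esrrb, Esrrg, Rara, Rxrg, Thrb, Ppara, Pparg, Rorb, Nr1d1, Nr1h3, Nr1h4, Nr1i2, Nr1i3, Nr2e1, Hnf4g, Nr4a3, Nr5a1, Nr6a1, Nr0b1 and Nr0b2. A signal under the array median is not a proof of absence, since a probe set can be dim for its own sequence.

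**Figure D1:**
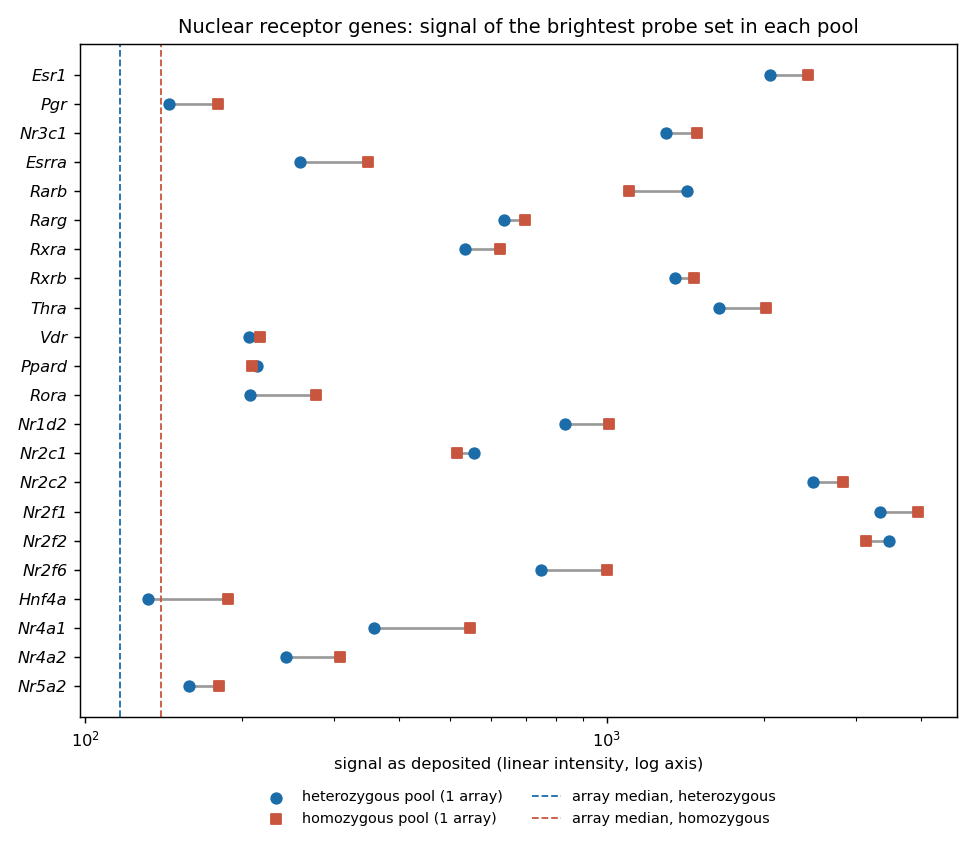
Signal of the brightest probe set of the 22 measured nuclear receptor genes in the heterozygous (circles) and homozygous (squares) pool, 1 array each, in linear intensity on a log axis; dashed lines are the array medians of 116.5 and 139.4. Each row is to be read within itself, and Rarb, Nr2f2, Nr2c1 and Ppard are the rows in which the homozygous signal is the lower of the pair.

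The receptor family as a whole differed little between the pools. Rarb was the one measured member at least 1.5-fold lower in the homozygous pool, where 0.884% of the 11431 measured genes were, and 0 members were at least 1.5-fold higher, where 2.08% of genes were. No member differed 2-fold in either direction, as 0.455% of genes did. The median log2 difference of the 22 members was -0.03, against 0.04 for all measured genes, and 13 members (59.1%) lay below 0, against 42.3% of genes. Of the members, 16 (72.7%) stayed within the SD between probe sets, as did 73.7% of all genes. The 6 outside it were Rarb, Nr2f2, Nr2c1 and Ppard on the lower side and Nr4a1 and Hnf4a on the higher side.

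**Figure D2:**
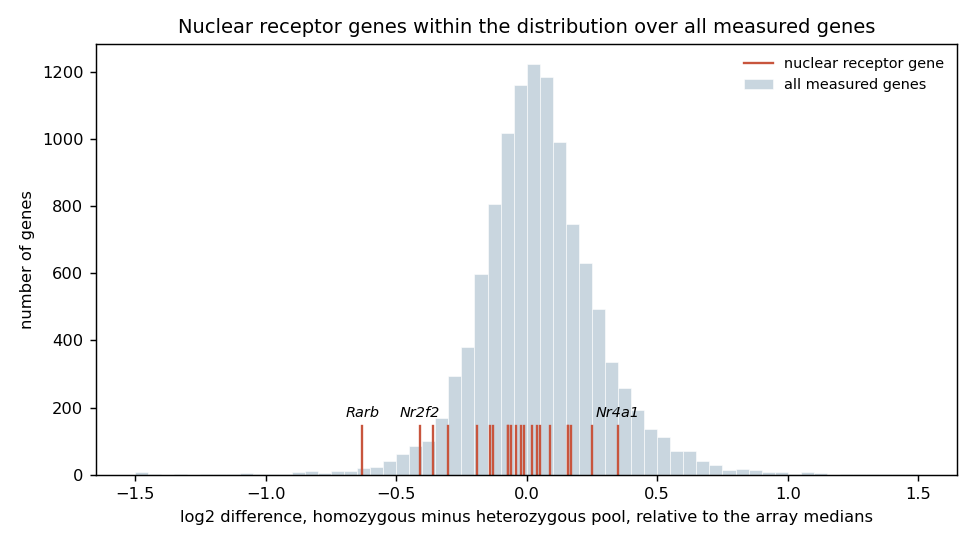
Number of genes by log2 difference, homozygous minus heterozygous pool, relative to the array medians, for the 11431 measured genes (bars; 11 genes beyond 1.5 on either side are counted in the outermost bars) with the 22 measured nuclear receptor genes as red ticks. The members run from -0.63 (Rarb) to 0.35 (Nr4a1), and most lie in the central peak.

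Rarb had the lowest value of the family. It encodes retinoic acid receptor beta, a ligand-dependent activator whose own gene is a classical target of retinoic acid. Its only probe set read 1422.9 for heterozygous and 1101.4 for homozygous ridges. The signal was thus lower on the brighter of the arrays, and relative to the array medians Rarb was 1.55-fold lower (-0.63). Of all measured genes, 83 (0.726%) had a value this low or lower. In pooled tissue, fewer cells that express a gene and less RNA per cell cannot be told apart. Because a single probe set reports on Rarb, no further measurement of it was available within these arrays.

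The Rarb promoter is shown because the gene is known for a retinoic acid response element close to its start. The RefSeq promoter (GRCm38.p6, chr14:16575427-16575726, minus strand, 250 bases before to 50 after the start) reads, with a direct repeat of the receptor hexamer in capitals:
Rarb: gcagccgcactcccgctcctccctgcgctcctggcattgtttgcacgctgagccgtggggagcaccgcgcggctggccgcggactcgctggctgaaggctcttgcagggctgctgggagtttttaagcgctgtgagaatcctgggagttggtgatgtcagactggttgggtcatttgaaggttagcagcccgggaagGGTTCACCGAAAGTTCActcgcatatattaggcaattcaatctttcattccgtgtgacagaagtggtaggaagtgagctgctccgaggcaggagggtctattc

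The hexamers searched were AGGTCA and its variants AGTTCA, also GGGTCA, and finally GGTTCA, in the same orientation and with 0 to 6 bases between them, on both strands. The Rarb repeat has a spacing of 5, the arrangement that retinoic acid receptors paired with retinoid X receptors prefer, and begins 53 bases before the start. A repeat of spacing 5 was present in 32 of 32851 RefSeq promoters (0.0974%), and one of any spacing from 0 to 6 in 323 (0.983%). Among the 63 promoters listed for 42 of the receptor genes, the Rarb promoter was the only one with such a repeat. Nr3c1, Thra, Hnf4g and Nr5a1 were not in the promoter table. These matches describe the letters in the window and say nothing of occupancy in the ridge.

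The partners of Rarb differed less. Rarg, the retinoic acid receptor gamma gene, went from 636 in the heterozygous to 695.8 in the homozygous pool, a log2 difference of -0.13. Rara, which encodes the alpha receptor, was under both array medians at 89.7 and 118.7. Rxra, a retinoid X receptor gene, went from 533.9 to 623.3 (-0.04), and its second measured probe set stood at -0.12. Rxrb, another of these partners, went from 1353.2 to 1467 (-0.14). All 4 retinoid receptor genes measured thus had negative values, but 3 of them were within the SD between probe sets, and these 3 become positive in the signals as deposited.

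Genes that retinoic acid is known to induce did not share the value of Rarb. Of 12 listed, 9 had a probe set and 6 were measured, with a median of 0.08 and 4 values above 0, and none reached 1.5-fold. Stra6, the cell-surface receptor for retinol-binding protein, went from 580.2 to 787.2 (0.18). Dhrs3, a reductase that limits retinoic acid formation, stood at 0.08 and Crabp2, which carries retinoic acid to its receptors, at 0.07. Cyp26b1, the enzyme that degrades retinoic acid in the fetal testis, went from 237.3 to 267.1 (-0.09), and Cyp26a1 was under both medians. The ends of the list were Rarres2, a retinoid-induced gene encoding the attractant chemerin, at 0.41, and Tgm2, a transglutaminase, at -0.22.

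Nr2f2 had the second lowest value of the family. It encodes COUP-TFII, an orphan receptor of mesenchyme that in mouse embryos is needed for the Wolffian duct to disappear in females. The brightest of its 6 probe sets went from 3474.8 to 3135.6, a log2 difference of -0.41 (1.33-fold lower). The other 5 gave -0.50 (1642.4 and 1392.8), -0.30 (1542.7 and 1504.1), -0.18 (1580.7 and 1671.1), -0.06 (2493.5 and 2862.6) and 0.02 (72.9 and 141.4). Thus, relative to the array medians, 5 of 6 probe sets lay below 0, and none reached 1.5-fold. On the dimmest the heterozygous signal of 72.9 was under the array median, so that its 0.02 is taken against the floor and understates the higher homozygous signal.

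The close relatives of Nr2f2 did not show the same value. Nr2f1, which encodes COUP-TFI, went from 3332.4 to 3941.7 (-0.02) on its single probe set. Nr2f6, a further COUP relative, went from 746.4 to 999.9 on its brightest probe set (0.16) and from 631 to 641.6 on the other (-0.23), so that its probe sets point in opposite directions.

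The testicular receptors Nr2c1 and Nr2c2, orphan repressors that act on embryonic globin genes in red cell precursors, had mostly negative values. Nr2c1 (TR2) went from 556 to 517, a log2 difference of -0.36 that became -0.04 with the floor at the 75th percentile. Of its 3 other measured probe sets, 1 went from 479.7 to 426.3 (-0.43), 1 from 152 to 116.5 (-0.38) and 1 from 221.6 to 295.6 (0.16). The homozygous signal of 116.5 was under the floor, so that -0.38 is a lower bound on the size. Nr2c2 (TR4) went from 2489.4 to 2833.8 on its brightest probe set (-0.07), but from 688.7 to 431.5 (-0.93) on another and from 204.3 to 192.9 (-0.34) on the last. All 3 were below 0, and they disagree on the size by more than the SD between probe sets.

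Steroid hormone receptors were close to 0. Esr1, the oestrogen receptor alpha gene, went from 2052.3 to 2434.2 (-0.01), and its second measured probe set from 625.8 to 722.6 (-0.05). Pgr, the progesterone receptor gene and a known oestrogen target, was near the array median at 144.5 and 179.4 (0.05). Nr3c1, the glucocorticoid receptor gene, went from 1299.3 to 1489.6 (-0.06) and from 1219.4 to 1458.1 (-0.00) on its brightest probe sets. The remaining measured ones went from 267.9 to 254.9 (-0.33) and from 595.9 to 1229.8 (0.79), the latter 1.73-fold higher and marked by its name as one that several transcripts share. The probe sets of Nr3c1 thus disagree, and the brightest pair is at 0. Esr2 and Nr3c2, for oestrogen receptor beta and the mineralocorticoid receptor, were under both medians.

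**Figure D3:**
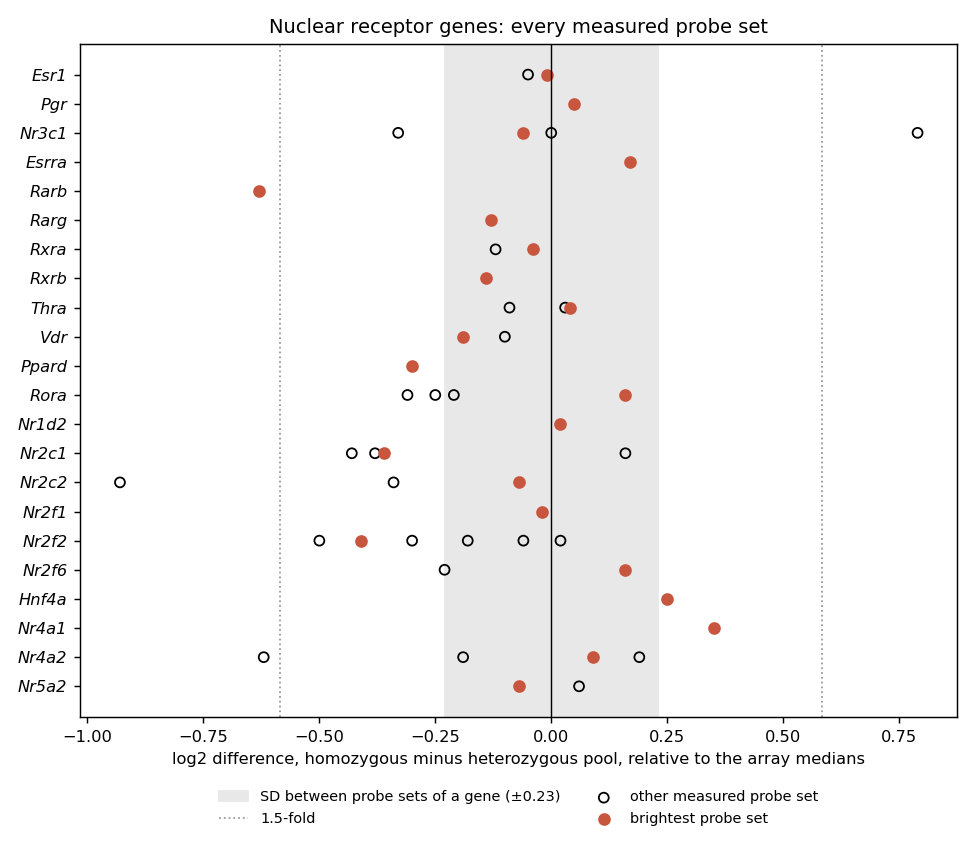
Log2 difference, homozygous minus heterozygous pool, relative to the array medians, for each of the 48 measured probe sets of the 22 nuclear receptor genes (filled, the brightest of a gene; open, the others), with the SD between probe sets of a gene (0.23) shaded and 1.5-fold dotted. Single probe sets of Nr2c2 (-0.93), Nr4a2 (-0.62) and Nr3c1 (0.79) lie apart from the other probe sets of their gene, while Rarb rests on 1 point.

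The side of 0 was also compared between probe sets of a gene. Of the 12 measured members with 2 or more measured probe sets, 4 (Esr1, Rxra, Vdr and Nr2c2) had all of them on 1 side of 0. The share over all genes was not computed, so this count is no result about the family. Values near 0, such as those of Thra (-0.09 to 0.04) and Nr5a2 (-0.07 to 0.06), change sign with the scaling. Counting probe sets instead of genes, 4 of 48 (8.33%) differed at least 1.5-fold, 1 higher and 3 lower, against 4.34% of all measured probe sets with 1 gene. They were 1 each of Nr3c1 (0.79), Rarb (-0.63), Nr2c2 (-0.93) and Nr4a2 (-0.62). Only that of Rarb is the brightest of its gene. Probe sets under the floor in 1 pool entered this count with their lower bounds.

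Glucocorticoid and oestrogen response genes were likewise within 1.5-fold on their brightest probe sets. The 9 measured glucocorticoid targets had a median of 0.06, and 7 of them lay above 0. Tsc22d3, the glucocorticoid-induced leucine zipper gene, went from 1214.2 to 1749.7 (0.27), with its 3 probe sets at 0.13 to 0.78, and the metallothionein gene Mt2 from 975.1 to 1402.9 (0.27). Fkbp5, a chaperone gene that is a standard glucocorticoid readout, stood at 0.03. The 5 measured oestrogen and progesterone targets had a median of -0.06, and 3 of them lay below 0, with Greb1, an oestrogen receptor cofactor, at -0.32 and Tff1, a trefoil peptide gene, at 0.17. Enzymes that convert steroid hormones had 3 measured members, with a median of -0.07. Hsd11b2, which inactivates glucocorticoids, went from 1280 to 1374.8 (-0.16), and Hsd11b1, which reactivates them, from 63.9, under the floor, to 167.3 (at least 0.26).

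Thra, the thyroid hormone receptor alpha gene, went from 1641.3 to 2014.9 (0.04), and its other probe sets stood at 0.03 and -0.09. Vdr, for the vitamin D receptor, went from 206 to 216.3 (-0.19) and from 124.7 to 101.6 (-0.10). The signal of 101.6 was under the floor, so that -0.10 is a lower bound on the size. Thrb was under both medians, as were 8 of the 9 listed thyroid hormone and vitamin D targets with a probe set. The one measured was Klf9, a zinc finger gene induced by thyroid hormone and glucocorticoids, at 908.1 and 1130.7 (0.06). Esrra, an oestrogen-related receptor that drives mitochondrial genes, went from 257.4 to 347.6 (0.17), and its relatives Esrrb and Esrrg were under both medians.

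Among the lipid, bile acid and xenobiotic sensors, Ppard was the 1 of 7 genes with a probe set that was measured. It encodes a fatty acid receptor and went from 213.8 to 208.5, a log2 difference of -0.30 on 1 measured probe set, which became -0.01 when the floor was raised to the 60th percentile. Ppara, Pparg and Nr1h3, Nr1h4, Nr1i2 and Nr1i3, which act mainly in liver, fat and gut, were under both medians. The 13 measured targets of LXR and PPAR receptors had a median of -0.13, which turns to 0.13 in the deposited signals, and 10 of them lay below 0. None reached 1.5-fold on its brightest probe set. Dimmer probe sets of Fabp4 (0.62) and Cpt1a (0.59) were past 1.5-fold higher, against 0.25 and -0.09 on the brightest. Lpl, lipoprotein lipase, went from 2008.9 to 1708.5 (-0.49). Abca1, a cholesterol exporter, went from 3326.1 to 3027.6 (-0.39), and the other probe sets of both genes were also below 0. Abcg1, its partner in cholesterol export, went from 270.4 to 269.5 (-0.26), while Angptl4, an inhibitor of lipoprotein lipase, went from 691.1 to 984.3 (0.25). Hnf4a, a receptor of liver, kidney tubule and gut, was just above the median at 132.1 and 188.1 (0.25), and 3 further probe sets were under it. Its measured probe set is marked by its name as one that several transcripts share. With such probe sets left out, Hnf4a was not measured.

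Rora and Nr1d2, which drive and repress clock genes through the same DNA element, had values of 0.16 and 0.02. Rora went from 207.2 to 277.3, but its other 3 measured probe sets stood between -0.31 and -0.21. For the probe sets at -0.31 and -0.21 the homozygous signal was under the floor, so these values are lower bounds on the size. Nr1d2, encoding the haem-binding repressor REV-ERB beta, went from 830.5 to 1009.2. Clock genes had a median of 0.05 over 12 measured members, 9 above and 3 below 0. Cry1 and Cry2, the cryptochrome repressors, went from 515.2 to 818 (0.41) and from 306.2 to 480.5 (0.39), and Arntl, an activator of the clock, from 210.4 to 323 (0.36). Nfil3, a repressor acting on the same outputs, went the other way, from 181.5 to 168.3 (-0.37).

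Nr4a1 had the highest value of the family. It encodes NUR77, an orphan receptor that cells induce within minutes of a stimulus and that needs no ligand. Its single probe set went from 358 to 545.9, a log2 difference of 0.35 (1.27-fold higher), short of 1.5-fold, and 8.76% of all measured genes had a value this high or higher. Nr4a2, its relative NURR1, went from 242.7 to 308.2 on the brightest probe set (0.09). The others measured stood at 0.19 (160.4 and 218.6), -0.19 (133 and 137.7) and -0.62 (184.5 and 143.6), so that Nr4a2 had no common direction. The homozygous signal of 137.7 was under the floor, so that -0.19 is a lower bound on the size. The probe set at -0.62 bears the same mark in its name as the Nr3c1 probe set at 0.79. Nr4a3 was under both medians.

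Values of other genes of the rapid response are given beside Nr4a1. The 7 measured immediate early genes had a median of 0.34, 6 of them above 0, and 1 reached 1.5-fold, Atf3. Fos, a subunit of AP-1, went from 1048.7 to 1772.6 (0.50), Ier2 from 1273.6 to 2135.6 (0.49) and Egr1, a zinc finger factor, from 1748.1 to 2640 (0.34). Atf3 went from 108.6, under the floor, to 221.9 (1.59-fold or more). Junb, another AP-1 subunit, stood at -0.13. Such genes are known to respond to dissection and handling as well as to growth factors, and handling times are not stated in the sources used here, and the part of handling was not tested.

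The Nr4a1 promoter is shown because it is packed with copies of an AP-1 and cyclic AMP type element. The RefSeq promoter (GRCm38.p6, chr15:101266596-101266895, plus strand, 250 bases before to 50 after the start) has TGCGTCA in capitals, a motif chosen after this sequence had been seen:
Nr4a1: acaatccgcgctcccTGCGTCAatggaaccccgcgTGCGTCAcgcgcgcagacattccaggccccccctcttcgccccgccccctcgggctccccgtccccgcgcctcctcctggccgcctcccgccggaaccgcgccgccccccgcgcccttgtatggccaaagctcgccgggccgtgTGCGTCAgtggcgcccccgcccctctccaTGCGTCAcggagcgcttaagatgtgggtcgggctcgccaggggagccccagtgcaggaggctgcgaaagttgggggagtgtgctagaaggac

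Its 4 copies begin 235, 215, 71 and 42 bases before the start and share 1 orientation. On either strand, TGCGTCA was present in 695 of 32851 RefSeq promoters (2.12%). Nr4a1 was the only promoter of the table with 4 or more copies, a cutoff equal to its own number of copies. Of the 63 promoters listed for the receptor genes, it was the 1 with a copy. The full cyclic AMP element TGACGTCA, searched in the same way, was in 588 promoters (1.79%), among the receptor genes in those of Nr2e1 and Nr6a1, both under the array medians here. The single extended hexamer AAGGTCA, to which NR4A, NR5A and oestrogen-related receptors bind as monomers, was in 1550 promoters (4.72%), among them 1 each of Nr6a1, Rxra and Rxrg.

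The receptors of gonad and adrenal development were dim or absent from the measured set. Nr5a1 (SF1), the master regulator of steroid-producing cells and of the early gonad, had signals of 111.4 and 105.2, below both medians, and its other probe set 23 and 33.6. Nr0b1 (DAX1), its antagonist, was at 42.7 and 67.9. Nr5a2 (LRH1), which shares its DNA element, was near the median at 157.9 and 180.6 (-0.07). The second measured probe set of Nr5a2 stood at 0.06 or more, its heterozygous signal of 99.7 being under the floor. Nr6a1, the germ cell nuclear factor gene, had 5 probe sets, all under both medians.

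Some targets of SF1 were measured nonetheless. Of 7 measured genes of steroid synthesis and SF1 regulation, 5 had values below 0, the median was -0.30, and Cyp17a1, an enzyme of androgen synthesis, was 1.52-fold lower (376.6 and 297.1). Hsd3b1, another enzyme of that pathway, went from 243.5 to 210.1 (-0.47), Inha, the inhibin alpha gene, from 342 to 317.7 (-0.37) and Mc2r, the corticotropin receptor of the adrenal cortex, from 230.3 to 223.7 (-0.30). Markers of gonadal cells had values in the same direction. All 5 measured germ cell markers of 8 with a probe set were below 0 (median -1.07), Pou5f1 only just (-0.00). The summed signal of the list, as deposited and with the shift between the arrays left in, went from 1397.8 to 761.5. Dazl (-1.19), Dppa3 (-1.12) and Dppa5a (-1.07) were at least 1.5-fold lower. Pou5f1 (116.8 and 48.8) and Ddx4 (151.9 and 100.2, at -0.38) were under the floor in the homozygous pool. Their values are thus lower bounds on the size. For fetal Sertoli cells, 6 of 7 measured markers of 8 were below 0 (median -0.54, summed signal 2568.5 and 2273.9). Cst9 (-0.92), Defb19 (-0.66) and Sox9 (-0.64) were at least 1.5-fold lower, and Amh was under both medians at 19 and 5.5. Cst9 (220.8 and 111.9) and Defb19 (183.9 and 119.3) were under the floor in the homozygous pool, so their differences are lower bounds on the size. For fetal Leydig cells, 3 of 3 measured markers of 4 were below 0 (median -0.47, summed signal 842.7 and 787.7). These 3, Cyp17a1, Cyp11a1 and Hsd3b1, are also among the 7 genes of steroid synthesis and SF1 regulation above. They are the same values and not a separate observation. The part of residual gonadal cells in the values of Cyp17a1 and the other SF1 targets was not tested.

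Every listed cofactor and chaperone with a probe set was measured, and none differed 1.5-fold on its brightest probe set. All 18 listed coactivators were measured, 8 above and 10 below 0, with a median of -0.06, and 0 reached 1.5-fold. Ncoa1 and Ncoa2, of the steroid receptor coactivator family, stood at 0.13 and 0.10 and Ncoa3, a further relative, at -0.39 (416.7 and 380.8), with its second probe set at -0.57. Carm1, an arginine methyltransferase recruited by these coactivators, went from 1348.5 to 2107 (0.38), and Ppargc1a, a partner of PPAR and oestrogen-related receptors in mitochondrial gene control, from 186.2 to 168 (-0.41). Of 9 listed corepressors 7 had a probe set, and all 7 were measured. They had a median of -0.03, with Gps2 and Lcor at 0.25 each, and Hdac3, the deacetylase of the NCOR complex, at -0.03. Of 10 listed chaperones that hold steroid receptors ready for ligand, 7 had a probe set and were measured. Their median was 0.01, with Hsp90aa1 at 0.14 and Hspa8 at -0.27. The 4 measured probe sets of Hspa8 disagree, running from -0.27 on the brightest to 0.75, past 1.5-fold higher. Among the cofactors, dimmer probe sets of Crebbp (-0.65), Tbl1xr1 (-0.67) and Nrip1 (-0.66) were past 1.5-fold lower.

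**Figure D4:**
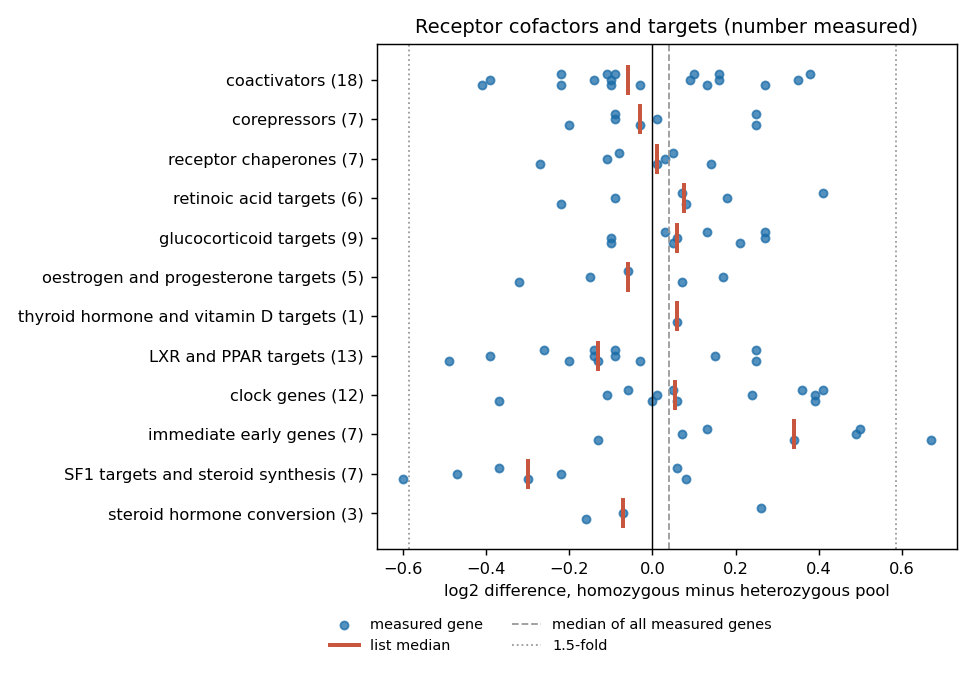
Log2 difference, homozygous minus heterozygous pool, relative to the array medians, of each measured gene in 12 lists of receptor cofactors, targets and related genes (points, spread vertically only for legibility), with the list median in red, the median of all measured genes (0.04) dashed and 1.5-fold dotted. Immediate early genes have the highest median (0.34) and genes of SF1 regulation and steroid synthesis the lowest (-0.30) of the lists shown.

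Over the 12 lists together, 119 of 139 genes had a probe set and 91 were measured. Of these 91, 2 (2.2%) reached 1.5-fold on the brightest probe set, Atf3 higher and Cyp17a1 lower. Over all measured genes, 2.08% were at least 1.5-fold higher and 0.884% lower. The cell type lists describe the tissue in which the receptors were measured. Their summed signals cover all genes of a list with a probe set and are as deposited. Unlike the medians, these sums therefore carry the shift of 0.26 toward the homozygous array. Duct epithelium markers were measured in 12 of 13 cases, 10 above and 2 below 0 (median 0.22, summed signal 15443 and 21221.2), with Wnt7a, a signal of Müllerian epithelium, 1.5-fold higher (0.65) and Gata3 at -0.53. The other measured probe set of Wnt7a stood at 0.22, within the SD between probe sets. Ridge mesenchyme and coelomic epithelium markers were measured in 12 of 13, 3 above and 9 below 0 (median -0.12, summed signal 44399.2 and 47964.9), but this list holds the targeted gene. Without Amhr2, a choice made after seeing the data, 11 of 12 were measured, 3 above and 8 below 0 (median -0.10, summed signal 42849.6 and 47954.7), with Osr1, a transcription factor of intermediate mesoderm, lower at 304.4 and 165.4 (-1.14). All 7 hepatocyte markers with a probe set were under both medians, and 2 of 8 metanephric kidney markers were measured, Eya1 (0.23) and Foxd1 (0.16). The median was -0.07 for macrophage markers, with Cx3cr1 at -0.87 and Cd68 at -0.28, and 0.12 for endothelium, with Cdh5 at 0.49 and Kdr at -0.53. It was -0.01 for sympathetic neurons and chromaffin cells, with Npy at 1.23 and Stmn2 at -0.25, and 0.30 for Schwann and neural crest cells, with Erbb3 at 0.32 and Fabp7 at 0.28. Smooth muscle stood at 0.08, with Actg2 at 0.49 and Acta2 at 0.09, and erythroid cells at -0.01, with Alas2 at -0.09 and Klf1 at 0.07. The heterozygous signal of Klf1 was under the floor, so its 0.07 is a lower bound. Rarb and Nr2f2 are known from mesenchyme, and whether a shift between duct and mesenchymal cells has a part in their values was not tested.

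Among the receptor genes, 4 lie on chromosome 15 with the targeted gene. In RefSeq gene order, 7 protein-coding genes separate Rarg from Amhr2, 45 separate Nr4a1, 137 Vdr and 224 Ppara. Their values of -0.13 for Rarg, 0.35 for Nr4a1 and -0.19 for Vdr, with Ppara under both medians, showed no common direction. Over the 452 measured genes of that chromosome, the targeted gene among them, the median was 0.02. Of these, 6 were at least 1.5-fold higher and 6 lower, Amhr2 being 1 of the lower ones. Over all measured genes, 2.08% were at least 1.5-fold higher and 0.884% lower. The strain origin of alleles near the target is not stated in the sources used here.

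Scaling decides the sign of most of these small values. In the signals as deposited the median of the 22 members was 0.23, against 0.29 for all measured genes, and 18 members were above 0. Of all measured genes, 10.1% were then 1.5-fold higher and 0.341% lower. The signals of the 18 hybridisation control spikes were higher on the homozygous array by a median of 0.66. Relative to these spikes the members' median was -0.43, against -0.37 for all measured genes, and all 22 members were below 0. Of all measured genes, 0.254% were then 1.5-fold higher and 12.6% lower. The shares of all genes above or below 0 under these 2 scalings were not computed, so the member counts are no result about the family. Rarb was below 0 in each case, at -0.37 as deposited and -1.03 against the spikes, as were Nr2f2 (-0.15 and -0.81), Nr2c1 (-0.10 and -0.77) and Ppard (-0.04 and -0.70). These are values of the brightest probe sets, and others of Nr2f2 and Nr2c1 were above 0 as deposited. The other Nr2f2 probe sets stood at 0.28, 0.2, 0.08, -0.04 and -0.24. The other measured Nr2c1 probe sets stood at 0.42, -0.12 and -0.17. Nr4a1 was at 0.61 as deposited and at -0.05 against the spikes.

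**Figure D5:**
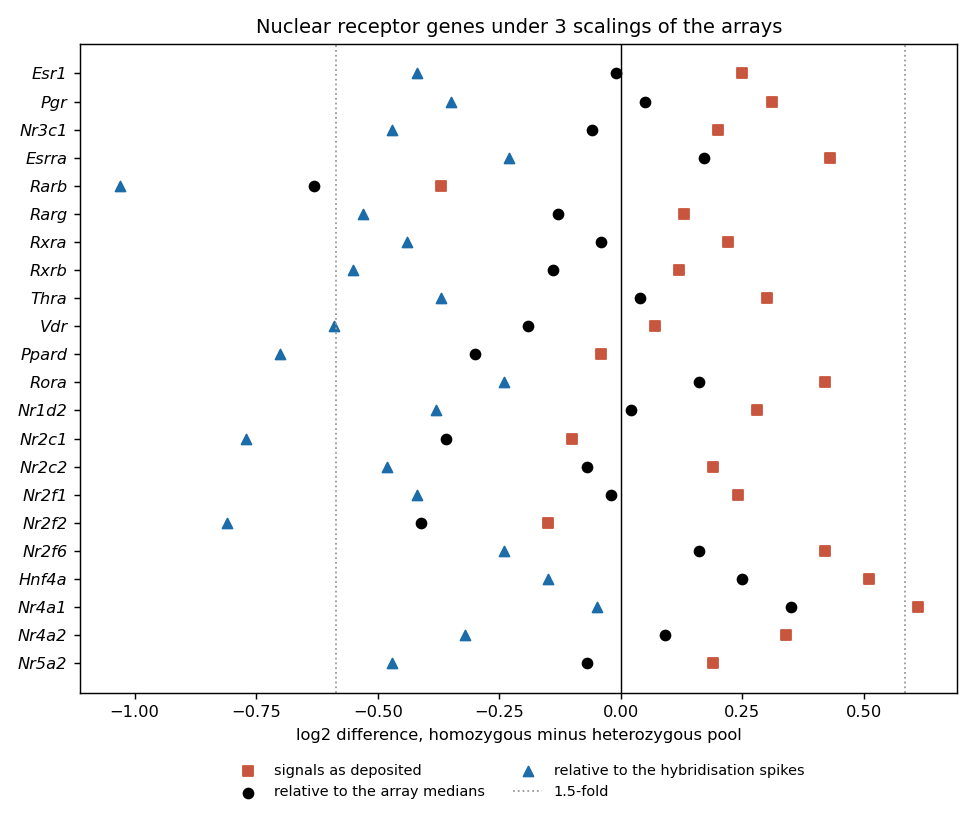
Log2 difference, homozygous minus heterozygous pool, of the 22 measured nuclear receptor genes with signals as deposited (squares), relative to the array medians (circles) and relative to the hybridisation spikes (triangles); dotted lines mark 1.5-fold. Each gene is shown by its brightest probe set. On these, Rarb, Nr2f2, Nr2c1 and Ppard stay left of 0 under all 3 scalings, while the other 18 genes cross it.

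The authors' deposited table of 739 probe sets, none under 2-fold in size, holds 1 probe set of the receptor genes. It belongs to Nr3c1, with a fold of -2.034 between signals of 84.4 (heterozygous) and 41.5 (homozygous) in the authors' deposited table. In the value table that probe set had 77.4 and 46.1, under the medians of both arrays, as had 503 (68.1%) of the probe sets listed there. The brighter Nr3c1 probe sets described above did not share this difference.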

How the data were processed

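Total RNA of each pool was labelled with biotin and hybridised to a single-colour Affymetrix array, per the labels' protocols. The authors deposited linear intensities, 1 for each probe set on each array. GCOS and MAS5 appear with no stated role, per the submitters' processing notes. The other table is the authors' list of 739 probe sets with rescaled intensities and a signed fold change, deposited by them and treated as a score. Its intensities equal the value table times 0.9007 (homozygous) and 1.0898 (heterozygous). Neither the value table's scaling nor the list's filter is stated in the sources used here.

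Of 45101 probe sets, 64 controls were left out. Of the rest, 34945 had 1 gene symbol, 932 several and 9160 none listed. Signals under the array median were set to it, each gene was represented by its probe set of highest mean signal, and log2 differences were taken relative to the array medians (Python 3.11.15, pandas 2.3.3). With 1 array per group no test was run, and the arrays' number limits the precision. A gene counts as past the threshold at 1.5-fold. The calculation was tested on an artificial pair of arrays with known changes. All receptor genes are accounted for. Of each other list, genes past 1.5-fold, or else at least the 2 with the largest difference, are named, and further genes were named after their values were seen. The receptor genes and the lists were chosen with earlier results of these data known. Promoters are RefSeq's (GRCm38.p6). No build of the array's annotation is stated in the sources used here.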

Additional observations from a re-analysis of the deposited data

How the results depend on the processing

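Rarb was at least 1.5-fold lower, with 0 members 1.5-fold higher, under scaling to the 75th percentile, quantile normalization, loess, the constants of the authors' table, a pseudocount of 16 in place of the floor, probe-set medians per gene, leaving out shared probe sets, and floors moved to the 40th, 60th or 75th percentile. These floors gave 365, 143 and 57 genes 1.5-fold higher and 175, 62 and 26 lower, with 31, 18 and 13 members measured. Its log2 difference ran from -0.67 to -0.62 under these, and the members' median from -0.06 to 0.02. With signals as deposited, 1 member (Nr4a1) was 1.5-fold higher, 0 were lower and the median was 0.23, while 10.1% of all measured genes were 1.5-fold higher. Against the hybridisation spikes 5 members (Rarb, Nr2f2, Nr2c1, Ppard and Vdr) were 1.5-fold lower and the median was -0.43, with 12.6% of genes lower. Both shifts follow from the scaling, which moves every gene by the same amount. At a threshold of 2-fold 0 members passed, and at a log2 difference of 0.32 4 did (Rarb, Nr2f2, Nr2c1 and Nr4a1). Using the median of probe sets moved Nr2c2 to -0.34, Rora to -0.23, Nr2f2 to -0.24 and Nr2f6 to -0.04. The floor at the 60th percentile moved Ppard from -0.30 to -0.01, and that at the 75th moved Nr2c1 from -0.36 to -0.04, both then inside the SD between probe sets. No paired analysis was possible because each genotype had 1 pool. The arrays give no measure of variation between pools, and members near the array median (Pgr, Hnf4a, Nr5a2, Vdr, Ppard) depend on where the floor is set: of these only Ppard remained measured at the 60th percentile and none at the 75th.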
